A study of Homo sapiens with 9 samples.

Results

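The transcripts of untreated A375 cells, an established human melanoma line, were described by their level and by their rank among all genes. The 3 untreated libraries of a series of 9 mRNA sequencing libraries were taken, and within their count table the 20463 annotated genes of 22605 features were kept, leaving out 2142 features assembled by the authors. The cells were grown in DMEM with fetal bovine serum, received no compound and are described as biological replicates. The other 6 libraries of the series came from A375 cells given Salvianolic acid B and are not used here. A375 carries an activating mutation of BRAF, as background knowledge of the line, so every library below is of BRAF-mutant cells of a single tumour and none stands for melanocytes or for melanoma in general.

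Melanocytes arise from the neural crest, and the transcription factors SOX10, PAX3 and MITF direct their identity and the pigment enzymes TYR, TYRP1 and DCT. Melanoma lines are often placed along an axis from pigmented cells with high MITF to dedifferentiated cells, in which pigment genes are silent and genes such as AXL, NGFR and EGFR are active. Mutant BRAF drives MEK and ERK, and ERK induces both its own feedback inhibitors and cell-cycle genes such as CCND1. Many melanoma lines also transcribe chemokines, matrix genes and antigens that are otherwise restricted to the testis.

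Total counts were 29658753 to 30063195 per library over all features, and 15394 to 15426 annotated genes had at least 1 count. Over 11234 genes with at least 100 counts on average, the median coefficient of variation between the 3 libraries was 5.08%, and 294 of these genes (2.62%) had a highest library more than 1.5 times the lowest. Pearson correlations of log2 CPM between pairs of libraries lay between 0.989 and 0.992 over 11216 genes, which are not independent replicates. A chi-square per degree of freedom of 7.47 to 10.4 between pairs gave no sign of a library deposited more than once. Of the 8 genes with the highest spread, 4 carry the joined names of neighbouring genes, among them HNRNPUL2-BSCL2, which had 1109 counts in replicate 1 and 0 in the other libraries, ISY1-RAB43, which had 530 in replicate 2 alone, and BIVM-ERCC5, which had 185, 0 and 983. Of 25 genes at 0 in one library and at 100 counts or more in another, 19 had a gene model and 18 of these shared at least 30% of their exons with another gene. The share of all genes with such an overlap was not computed, and the cause of these counts was not tested.

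Levels are given in TPM, the counts divided by the length of a gene's merged exons and scaled to the same total in each library, as the mean ± SD of n = 3 libraries. TPM allows levels of different genes to be compared, and 20248 of the genes had an annotated length. A pair of genes is said to differ in level only where the TPM ranges over the 3 libraries do not overlap, and a fold between them is the mean of the log2 ratios taken within each library. The smallest two-sided p of an exact sign-flip test with 3 values is 0.25, and no test was made. Where exons of another gene cover at least 10% of a gene's own exons, the gene is named as overlapped, because no source used here states whether the counting used strand, and reads of both genes may then be mixed.

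In untreated A375 cells 12452 of 20248 genes (61.5%) reached a mean of 1 TPM, 8659 (42.8%) reached 10 TPM and 1817 (8.97%) reached 100 TPM, and 16199 (80.0%) had at least 1 count in any library, which left 4049 at 0 in all 3. The median gene stood at 5.21 TPM. The 1817 genes at 100 TPM or more held 73.1% of all TPM, and the 3747 genes between 0 and 1 TPM held 0.101%. Between 432 and 467 genes per library made up the upper 50% of TPM. The shape of this distribution differed little between the libraries.

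The head of the ranking was made of respiratory-chain, translation, cytoskeleton and iron-storage transcripts. The 15 genes with the highest TPM included 8 that the mitochondrial genome encodes, led by MT-CO3, a subunit of cytochrome c oxidase, at 19604 ± 114 TPM, MT-CO2 at 16506 ± 433 TPM and MT-CO1 at 13150 ± 94.6 TPM. MT-ATP6, a subunit of the ATP synthase, followed at 11299 ± 701 TPM, and MT-CYB, MT-ATP8 (overlapped), MT-ND4 and MT-ND4L stood lower in the same group. Of the nuclear genes, EEF1A1, the elongation factor that brings tRNA to the ribosome, ranked first with 10529, 10954 and 10738 TPM in the 3 libraries. TMSB10, an actin-binding peptide, GAPDH, the glycolytic dehydrogenase (overlapped), and FTL, the ferritin light chain, were also in this group. The ribosomal protein genes RPL41, RPS6 (overlapped) and RPL13A completed the leading 15. By count rather than TPM, 10 genes took 5.49% ± 0.0262 of the reads assigned to annotated genes (Wilson 95% intervals per library within 5.45 to 5.51%, counting error only), and SERPINE2, a secreted protease inhibitor, was among them.

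**Figure D1:**
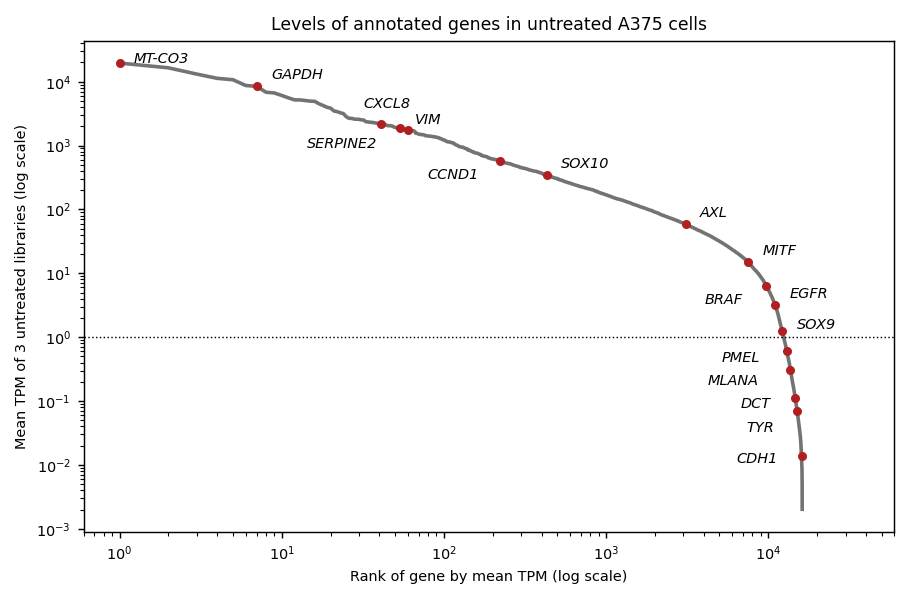
Mean TPM of each annotated gene with counts (vertical, log scale) against its rank (horizontal, log scale) in untreated A375 cells, with 17 genes marked in red and a dotted line at 1 TPM. CXCL8, VIM and SERPINE2 sit together near the top at 1760 to 2193 TPM, SOX10 stands well above MITF, and PMEL, MLANA, DCT, TYR and CDH1 all lie below 1 TPM.

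The label was checked against markers of the cells, beside 61.5% of all genes that reached 1 TPM. The counts of the melanoma list and of the neuronal and Schwann list lie near that share and do not by themselves mark the cells. Of 10 melanoma and melanocyte markers, 6 reached 1 TPM: SOX10 at 341 TPM, CSPG4, a melanoma proteoglycan, at 128 TPM, S100B at 107 TPM, PRAME, a tumour antigen, at 80.0 TPM, MITF at 14.8 TPM and S100A1 at 6.46 TPM. The 4 below 1 TPM were the pigment genes PMEL, MLANA, DCT and TYR, so the label rests on lineage and surface markers and not on pigmentation. Summed over the list, these markers came to 656 to 719 TPM per library. Of 14 leukocyte markers 2 reached 1 TPM, LYZ at 7.94 TPM (overlapped) and FCER1G at 1.14 TPM, PTPRC, the pan-leukocyte phosphatase CD45, had 0, 2 and 2 counts, and the list summed to 10.2 to 11.6 TPM. Of 14 epithelial markers 5 reached 1 TPM, led by KRT18 at 222 TPM (overlapped by KRT8) and KRT10 at 77.3 TPM, whereas EPCAM and CDH1 stood below 0.1 TPM and KRT5 had no count, and the list summed to 335 to 348 TPM. Fibroblast markers reached 1 TPM in 6 of 12 cases, from FAP at 10.2 TPM to COL1A1 at 0.164 TPM and PDPN at 0, and summed to 36.1 to 38.2 TPM. Endothelial markers did so in 4 of 10 cases, from EGFL7 at 12.1 TPM to CDH5 at 0.0138 TPM, and summed to 26.6 to 28.4 TPM. Neuronal and Schwann markers did so in 7 of 12 cases and summed to 368 to 390 TPM. In the last list 4 members reached 10 TPM, beside 42.8% of all genes. Among them were TUBB3, a neuronal tubulin (overlapped), at 186 TPM and ENO2 at 77.1 TPM, while UCHL1, DCX and STMN2 had no count.

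**Figure D2:**
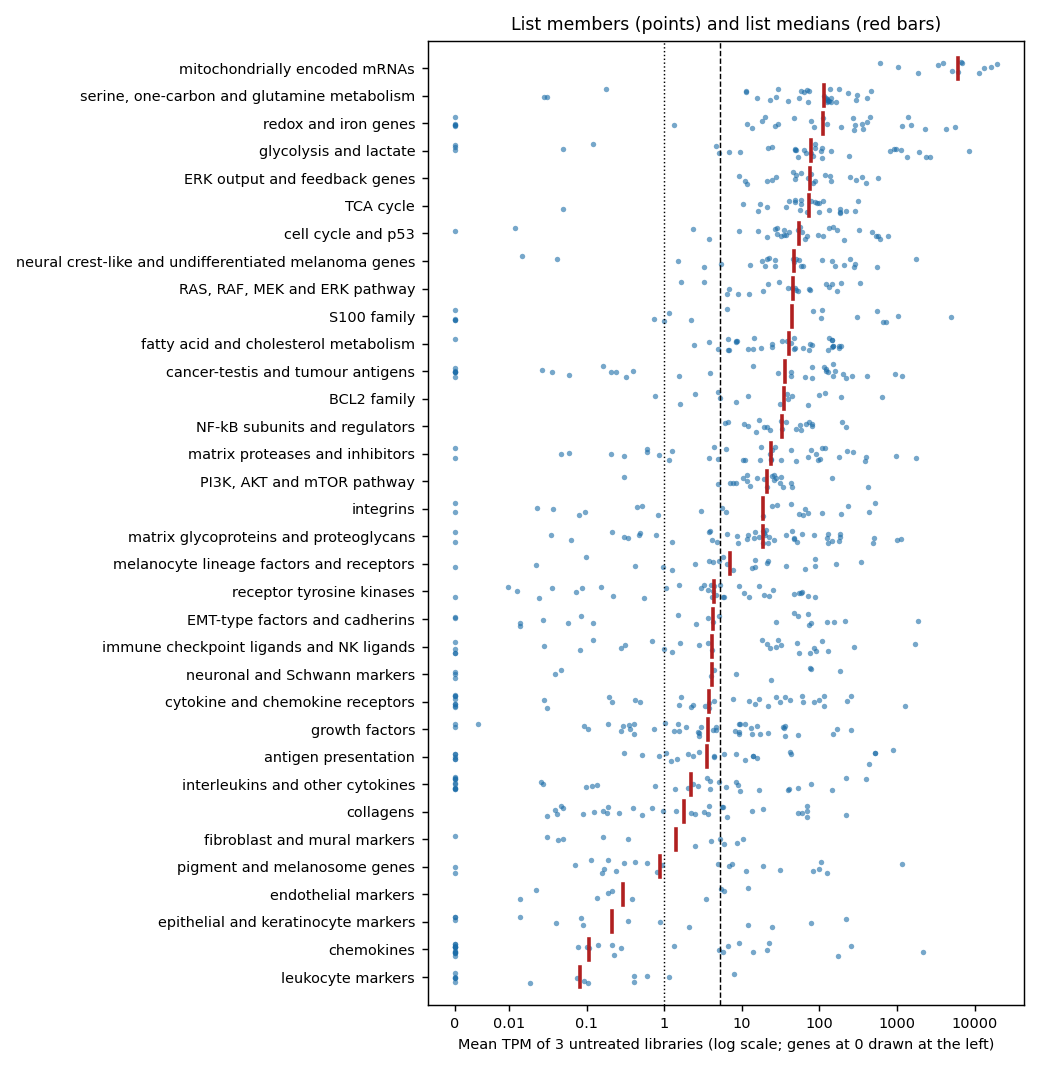
Mean TPM of every member (blue points, log scale, genes at 0 drawn at the left edge) of the 34 gene lists, with the list median as a red bar, a dotted line at 1 TPM and a dashed line at the median of all genes, 5.21 TPM. Mitochondrially encoded mRNAs lead at a median of 6093 TPM, metabolic and ERK output lists stand above the dashed line, and chemokines and leukocyte markers have the lowest medians.

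Lineage transcription factors and receptors of melanocytes were transcribed with a wide spread of levels. Of 24 members 19 (79.2%) reached 1 TPM, beside 61.5% of all genes, and the median was 7.05 TPM. SOX10, the neural crest factor that maintains the melanocyte lineage (chromosome 22, 37970686 to 37987422, GRCh38), measured 335, 326 and 363 TPM and ranked 430th. All 3 libraries lay within a narrow band, and the mean of 341 ± 19.4 TPM placed SOX10 at percentile 97.9. MITF, the master regulator of pigment cells (chromosome 3, 69739435 to 69968337), measured 13.9, 16.4 and 14 TPM, which placed it at percentile 62.9 and rank 7517. SOX9, a related factor that is often high where SOX10 is lost, measured 1.16, 1.05 and 1.51 TPM, and SOX10 exceeded it 279-fold (log2 ratio of SOX9 to SOX10 -8.12 ± 0.19).

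Other lineage factors ranged from above 100 TPM to near 0. SOX5, a relative of SOX10 that modulates its activity, reached 165 ± 8.38 TPM, and ALX1, a homeobox factor of the neural crest, reached 65.2 ± 3.39 TPM. PAX3, which works with SOX10 at the MITF promoter, stood at 6.36 ± 0.329 TPM, FOXD3, a neural crest factor, at 13.5 ± 2.47 TPM and TFAP2A (overlapped) at 2.50 ± 0.112 TPM. PAX3 ranked below MITF without overlap of the ranges. Among the receptors, ERBB3, the neuregulin receptor, measured 84.9, 88.8 and 89.7 TPM, EDNRB, the endothelin receptor of melanoblasts, 37.6 ± 1.45 TPM, and MC1R, the melanocortin receptor that controls eumelanin synthesis (overlapped), 14.8 ± 0.588 TPM. KIT, the receptor on which melanoblasts depend, had no count in any library. Over 3 libraries 0 counts allow up to 0.0229 TPM, counting error only. IRF4, which cooperates with MITF at the TYR locus, had 0, 3 and 0 counts, and PPARGC1A, a mitochondrial coactivator of some pigmented melanomas, stood at 0.0973 TPM.

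Of 24 pigment and melanosome genes 11 (45.8%) reached 1 TPM, a smaller share than the 61.5% of all genes, and the median was 0.870 TPM. CD63, a tetraspanin of late endosomes and melanosomes, measured 1137, 1134 and 1157 TPM, RAB38, a small GTPase that carries pigment enzymes, 105 ± 0.547 TPM, GPNMB, a melanosomal glycoprotein, 81.9 ± 2.35 TPM and SLC7A11, the cystine transporter, 97.8 ± 5.24 TPM. MYO5A, the motor that moves melanosomes, stood at 31 ± 0.479 TPM and RAB27A, its anchor, at 11.2 ± 0.915 TPM, but MLPH, the adaptor that joins both, stood at 0.799 ± 0.352 TPM.

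The enzymes and structural proteins of pigment itself were near 0. PMEL, which forms the fibrils of the melanosome, measured 0.650, 0.595 and 0.550 TPM from 20, 18 and 17 counts. MLANA, the MART-1 antigen, measured 0.493, 0.251 and 0.164 TPM, and TYRP1 1.22, 0.862 and 0.742 TPM. DCT, the dopachrome tautomerase, measured 0.0840, 0.171 and 0.0836 TPM, and TYR, the rate-limiting enzyme of melanin synthesis, had 0, 3 and 2 counts. These counts are so small that the order among MLANA, DCT and TYR was not resolved between single libraries. SLC24A5 (overlapped) and TRPM1, a channel of melanocytes and the host gene of a microRNA, had no count.

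The promoter of TYR is shown because it carries the E-box that MITF is known to bind, while the gene gave only 5 counts in all. The window is the 250 bases upstream of the start in the RefSeq table for GRCh38.p14, chr11:89177625-89177874, plus strand, with CATGTG in capitals.
TYR: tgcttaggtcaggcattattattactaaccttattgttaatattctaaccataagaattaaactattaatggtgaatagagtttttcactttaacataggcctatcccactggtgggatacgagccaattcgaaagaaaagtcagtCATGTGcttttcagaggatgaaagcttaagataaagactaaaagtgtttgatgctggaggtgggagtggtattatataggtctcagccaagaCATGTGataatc
CATGTG was searched on both strands, and its matches, neither of which overlaps another motif searched, began 104 and 12 bases upstream of the start. It was found in 7.53% of 21659 promoter windows of the same length. A match is a description of the letters and not a measurement of binding.

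Genes of neural crest-like and dedifferentiated melanoma were broadly transcribed next to SOX10. Of 27 members 25 (92.6%) reached 1 TPM, beside 61.5% of all genes, 22 reached 10 TPM, beside 42.8%, and the median was 46.4 TPM. SERPINE2, the protease nexin, led with 1717, 1811 and 1750 TPM. NT5E, the ecto-nucleotidase CD73, stood at 276 ± 12.3 TPM, FOSL1, the AP-1 subunit FRA1, at 250 ± 17.7 TPM, CD44, the hyaluronan receptor, at 208 ± 6.76 TPM, CAV1, the coat protein of caveolae, at 157 ± 5.47 TPM and TNC, the matrix protein tenascin C, at 144 ± 3.69 TPM. AXL, a receptor kinase used to mark dedifferentiated melanoma, measured 56.4, 58.8 and 59.6 TPM, 3.95-fold the level of MITF (log2 1.98 ± 0.13), without overlap. The gap was 2.87-fold when lengths of the longest transcript were used. NES, an intermediate filament of progenitors, stood at 54.1 ± 2.24 TPM, WNT5A at 26.7 ± 2.21 TPM and NGFR, the neurotrophin receptor CD271 (overlapped), at 19.9 ± 1.86 TPM.

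Members of the dedifferentiated programme were not uniformly high. EGFR measured 3.14, 2.99 and 3.49 TPM, 27.5-fold below ERBB3, and stood at percentile 45.5 of all genes. JUN, an AP-1 subunit, stood at 12.6 ± 1.85 TPM, far below FOSL1 of the same complex. GFRA2 and GFRA3, co-receptors for ligands of the GDNF family, gave counts in replicate 3 alone. RXRG, a marker of the neural crest-like state, stood at 21.2 ± 2.16 TPM.

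Mesenchymal adhesion genes exceeded epithelial ones. VIM, the mesenchymal intermediate filament (overlapped by an antisense gene), measured 1831, 1891 and 1920 TPM and ranked 54th. CDH2, N-cadherin, measured 69.6, 74.8 and 68.6 TPM, whereas CDH1, the E-cadherin of normal melanocytes and epithelium, had 2, 0 and 0 counts. CDH19, a cadherin of Schwann cells and melanocytes, and CDH13, which lacks a cytoplasmic tail, stood at 78.7 ± 6.86 and 73.6 ± 1.09 TPM, so their ranges and that of CDH2 overlapped. CTNNB1, beta-catenin, stood at 153 ± 3.41 TPM. Among the factors of epithelial-mesenchymal transition, PRRX1 at 125 ± 5.58, TWIST1 at 53.1 ± 0.765, ZEB1 at 46.6 ± 1.93 and SNAI1 at 27.7 ± 3.35 TPM stood above ZEB2 at 5.05 ± 0.584 and SNAI2 at 4.27 ± 0.657 TPM. The higher 4 and the lower pair did not overlap, and ZEB2 and SNAI2 are the members known from differentiated melanocytes. Over the whole list 15 of 23 reached 1 TPM (65.2%, beside 61.5% of all genes).

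**Figure D3:**
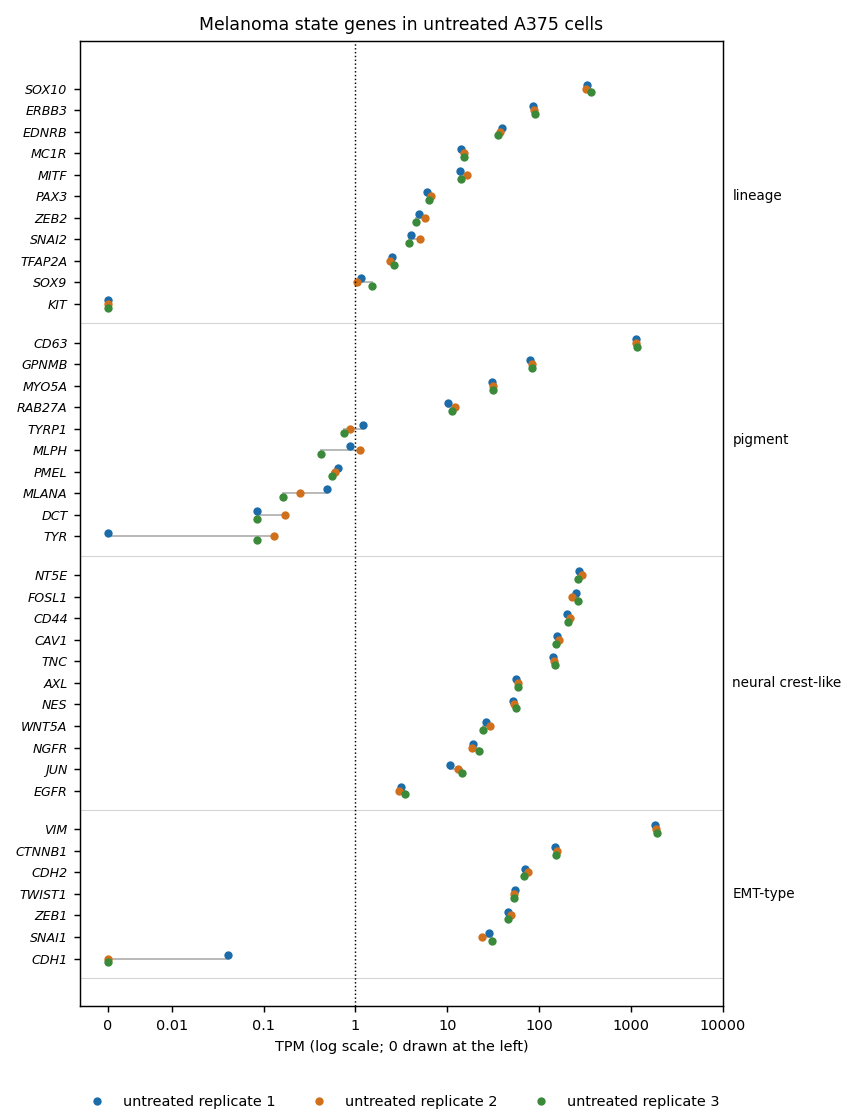
TPM of melanoma state genes (log scale, 0 drawn at the left) in untreated replicates 1 (blue), 2 (orange) and 3 (green), joined by a grey line, in 4 groups, with a dotted line at 1 TPM. SOX10 leads its group at 326 to 363 TPM, the pigment group spans from CD63 to TYR, and the spread between libraries widens below 1 TPM.

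All 22 genes of the RAS, RAF, MEK and ERK pathway reached 1 TPM, beside 61.5% of all genes, at a median of 46.0 TPM. NRAS measured 163, 183 and 161 TPM, above HRAS at 44.1 ± 4.42 TPM, without overlap of the ranges. BRAF, the mutated oncogene of this line (chromosome 7, 140719327 to 140924928), measured 6.16, 6.75 and 6.10 TPM, and ARAF, a kinase of the same family, stood at 52.8 ± 1.69 TPM. ARAF thus exceeded BRAF 8.35-fold, and 4.81-fold with the longest transcript as length. MAP2K1 (overlapped) exceeded MAP2K2, the other MEK, 6.78-fold (145 ± 5.56 against 21.4 ± 1.49 TPM, and 4.17-fold with the longest transcript). MAPK3, ERK1, stood at 30.5 ± 1.10 TPM. Upstream, the adaptors SHC1 and GRB2 stood at 187 ± 9.32 and 120 ± 1.68 TPM, the phosphatase PTPN11 at 132 ± 7.37 TPM, and NF1, which turns RAS off, at 6.79 ± 0.530 TPM.

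Genes that ERK induces were all transcribed: 22 of 22 reached 1 TPM, beside 61.5% of all genes, 21 reached 10 TPM, beside 42.8%, and the median was 74.4 TPM. Feedback inhibitors were among the highest. SPRY2, a Sprouty inhibitor of RAS activation, measured 355, 355 and 365 TPM, and SPRY4 stood at 136 ± 5.72 TPM. DUSP6, the phosphatase of ERK (overlapped), measured 283, 294 and 306 TPM, and DUSP4, its nuclear counterpart, 118 ± 2.78 TPM. PHLDA1 stood at 403 ± 9.02 TPM and the ETS factors ETV4 and ETV5 at 142 ± 5.31 and 49.5 ± 0.577 TPM. The immediate early genes stood lower: MYC at 24.4 ± 0.690, EGR1 at 21.1 ± 2.0 and FOS at 11.7 ± 1.72 TPM. FOSL1 exceeded FOS, EGR1 and MYC without overlap.

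In the PI3K, AKT and mTOR pathway 22 of 23 genes reached 1 TPM, beside 61.5% of all genes, at a median of 20.9 TPM. EIF4EBP1, the translation repressor that mTOR inactivates, led with 425, 393 and 438 TPM, and RHEB, the activator of mTOR, stood at 144 ± 8.45 TPM. AKT1, a kinase downstream of PI3K, stood at 44.0 ± 1.90 TPM. PIK3CA, a catalytic subunit (overlapped), stood at 24.3 ± 1.85 TPM, above PIK3R1, a regulatory subunit, at 11.7 ± 0.512 TPM. PIK3CG, the kinase of leukocytes, was the single member below 1 TPM, at 0.301 TPM.

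Of 36 receptor tyrosine kinases 26 (72.2%, beside 61.5% of all genes) reached 1 TPM, at a median of 4.33 TPM. Of these 12 reached 10 TPM, beside 42.8% of all genes, and none reached 100 TPM, beside 8.97%. ERBB3 led, followed by EPHA2, an ephrin receptor, at 71.1 ± 2.63 TPM, MET, the receptor of hepatocyte growth factor, at 60.2 ± 3.57 TPM, and AXL, whose range overlapped that of MET. IGF1R stood at 22.1 ± 1.28, TYRO3 at 25.3 ± 1.5, ERBB2 at 12.4 ± 1.15 and FGFR1 at 10.5 ± 0.576 TPM. The platelet-derived growth factor receptors were low, with PDGFRB at 5.26 ± 0.347 and PDGFRA (overlapped) at 4.04 ± 0.467 TPM. MET exceeded EGFR 18.8-fold. The neurotrophin receptors NTRK2 and NTRK3 stood at or below 0.0125 TPM.

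Cell-cycle genes stood high, with 30 of 32 at 1 TPM or more, beside 61.5% of all genes, and a median of 55.2 TPM. PCNA, the replication clamp, measured 760, 768 and 764 TPM, TOP2A stood at 597 ± 23.2 TPM, CCNB1, the mitotic cyclin, at 542 ± 13.8 TPM and CDK1 at 320 ± 22.6 TPM. CCND1, cyclin D1 (overlapped), measured 570, 581 and 571 TPM, and exceeded CCND3 27.6-fold (12.8-fold with the longest transcript). The third D-type cyclin gene, CCND2, gave 2 counts in all. CDK4 (overlapped) exceeded CDK6 8.17-fold, at 482 ± 6.65 against 59.0 ± 2.06 TPM. CCND1 thus supplied most of the D-type cyclin transcripts.

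Inhibitors of the cyclin-dependent kinases were unequal. CDKN1A, p21, stood at 168 ± 2.75 TPM, CDKN1B, p27, at 110 ± 3.70 TPM and CDKN2C, p18, at 96.0 ± 4.66 TPM. CDKN2A, the chromosome 9 gene of p16 and ARF that melanomas often lose, measured 4.10, 2.71 and 4.37 TPM, and its neighbour CDKN2B had no count, which allows up to 0.0314 TPM. MTAP, the next gene on the same arm, which salvages methionine, measured 138, 148 and 138 TPM. MDM2, a ubiquitin ligase, stood at 31.5 ± 1.34 TPM, RB1 at 64.7 ± 4.44 TPM, and TERT, the telomerase subunit, at 2.35 ± 0.417 TPM.

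Of the 16 genes of the BCL2 family 15 reached 1 TPM, beside 61.5% of all genes. MCL1, a short-lived survival protein, measured 620, 649 and 635 TPM and exceeded BCL2L1 (overlapped, 38.5 ± 1.48 TPM) 16.5-fold and BCL2 (2.46 ± 0.182 TPM) 259-fold. BCL2A1, a survival gene of the melanocyte lineage, stood at 71.0 ± 4.01 TPM, above BCL2L1 without overlap. On the pro-death side, PMAIP1, NOXA, stood at 187 ± 13.1 TPM and BAX at 117 ± 6.64 TPM, whereas BBC3, PUMA, stood at 8.34 ± 1.13 TPM and BCL2L11, BIM (overlapped), at 5.22 ± 0.557 TPM.

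**Figure D4:**
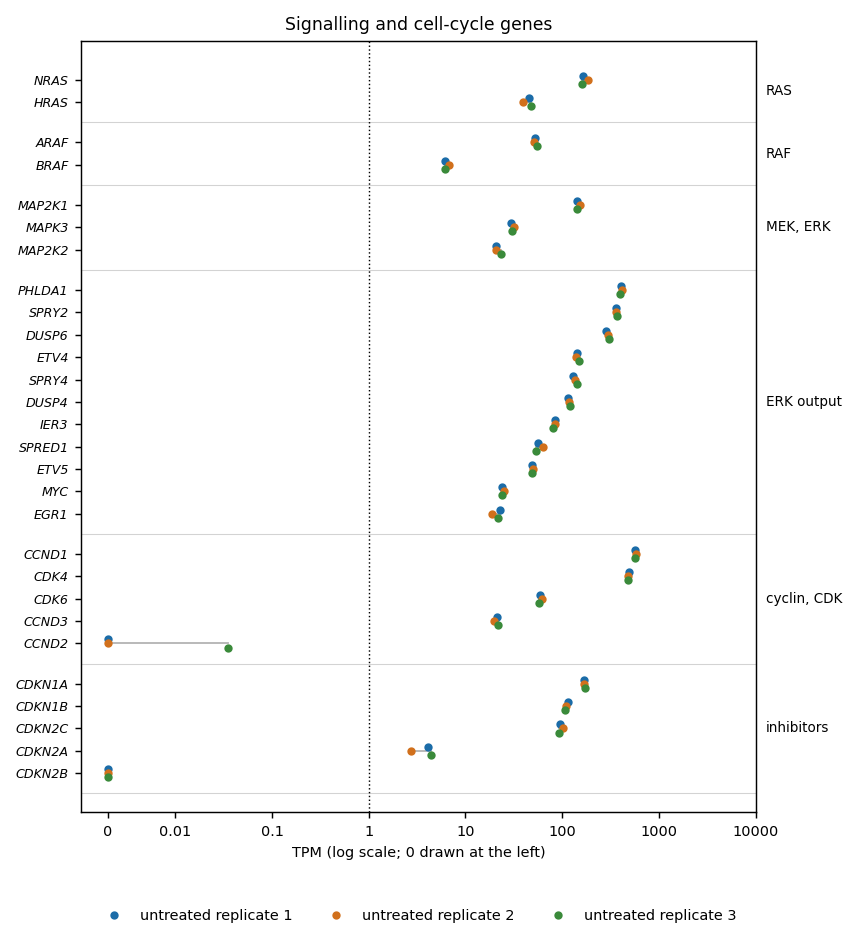
TPM of genes of the RAS, RAF, MEK and ERK pathway, ERK output genes, cyclins with their kinases, and kinase inhibitors (log scale, 0 drawn at the left) in the 3 untreated replicates. BRAF stands below ARAF, CCND1 and CDK4 stand near 500 TPM, and CCND2 and CDKN2B are at or near 0.

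A few chemokine genes were transcribed at a high level and most of the others hardly at all. Of 31 chemokine genes 11 (35.5%) reached 1 TPM, below the 61.5% of all genes, and the median was 0.108 TPM. Among the 31, 13 had no count, beside 4049 of all 20248 genes. CXCL8, interleukin-8, which attracts neutrophils (chromosome 4, 73740506 to 73743716), measured 2334, 2387 and 1858 TPM and ranked 41st of all genes. Replicate 3 was the lowest, and the other libraries lay close together. CXCL1, of the same receptor-binding class, measured 258, 276 and 234 TPM, and CCL2, which attracts monocytes, 174, 178 and 162 TPM, without overlap between them. CXCL8 exceeded CXCL1 8.53-fold and CCL2 12.7-fold. CXCL2 at 22.5 ± 1.56 TPM, CCL28 at 21.3 ± 1.83 TPM and CXCL3 at 13.9 ± 0.964 TPM came next. CXCL10, an interferon-induced chemokine, stood at 9.22 ± 1.92 TPM and CCL20 at 6.66 ± 1.18 TPM, whereas CXCL9 had no count and CCL5 stood at 0.224 ± 0.0962 TPM. CXCL12 had no count, which allows up to 0.0209 TPM.

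The promoter of CXCL8 is shown because its TATA box, NF-kB site and AP-1 site are textbook elements and the gene ranked 41st. The window is the 250 bases upstream of the RefSeq start on GRCh38.p14, chr4:73740319-73740568, plus strand, with the matches in capitals, in the order TGACTCA, GGAATTTCC and TATAAA.
CXCL8: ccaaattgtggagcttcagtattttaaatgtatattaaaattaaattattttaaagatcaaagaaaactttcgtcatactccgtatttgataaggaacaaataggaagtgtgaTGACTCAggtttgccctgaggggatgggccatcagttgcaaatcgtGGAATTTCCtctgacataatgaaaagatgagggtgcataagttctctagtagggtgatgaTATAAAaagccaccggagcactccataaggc
TGACTCA, an AP-1 element, began 137 bases upstream of the start, GGAATTTCC, an NF-kB element, 91 bases upstream, and TATAAA 31 bases upstream. The first and second motif were searched on both strands and TATAAA on the gene strand, and none overlaps another. Of 21659 windows of the same length, 3.46% held TGACTCA, 0.356% held GGAATTTCC and 6.17% held TATAAA. A gene with all 3 elements in its window and a rank of 41 does not show which factors were active.

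Of 36 interleukins and other cytokines 20 (55.6%, beside 61.5% of all genes) reached 1 TPM, at a median of 2.19 TPM. Among the 36, 10 had no count, beside 4049 of all 20248 genes. IL24, a cytokine of the interleukin-10 family first described in melanoma cells (chromosome 1, 206897443 to 206904139), measured 211, 227 and 227 TPM. IL1A, interleukin-1 alpha, measured 144, 160 and 131 TPM and IL1B 39.0, 41.5 and 39.9 TPM, so that IL1A exceeded IL1B 3.6-fold (1.90-fold with the longest transcript). LIF stood at 77.7 ± 4.27, IL11 at 53.4 ± 3.04 and CSF2, the granulocyte-macrophage factor, at 39.6 ± 2.0 TPM. IL6, of the same receptor family as LIF and IL11 (overlapped), stood at 0.760 ± 0.237 TPM. IL1RN, the natural antagonist of interleukin-1, IL20, the neighbour of IL24, and TNF had no count. MIF, the macrophage migration inhibitory factor (61.9% of its exons overlapped), measured 498, 154 and 541 TPM, with replicate 2 far below the others, so its mean of 397 ± 212 TPM is a poor guide.

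Growth factors reached 1 TPM in 31 of 44 cases (70.5%, beside 61.5% of all genes), at a median of 3.62 TPM. INHBA, the subunit of activin A, measured 255, 267 and 240 TPM. TGFA, a ligand of EGFR, measured 168, 173 and 163 TPM, 52.5-fold the level of its receptor gene. MDK, midkine, stood at 150 ± 12.1 TPM. The other EGFR ligands were lower, with HBEGF at 10.9 ± 0.938, AREG at 2.80 ± 0.869 and EREG at 0.104 ± 0.0695 TPM, and NRG1, the ligand of ERBB3, stood at 1.55 ± 0.156 TPM. VEGFB exceeded VEGFA, the main angiogenic factor, 3.35-fold (52.4 ± 3.10 against 15.7 ± 0.218 TPM), and VEGFA exceeded VEGFC 1.74-fold. TGFB1 stood at 36.2 ± 2.52 TPM and TGFB2 (overlapped) at 0.355 ± 0.149 TPM. FGF2, a mitogen of melanocytes and melanoma cells (overlapped), stood at 17.1 ± 0.971 TPM, and KITLG, the ligand of KIT, whose own gene had no count, at 4.70 ± 0.278 TPM. IGF1 had no count, and GREM1, an antagonist of bone morphogenetic proteins, gave 1 count.

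Receptor genes did not always follow their ligands. Of 40 cytokine and chemokine receptors 26 (65.0%, beside 61.5% of all genes) reached 1 TPM. Among the 40, 8 had no count, a share close to that of all genes (4049 of 20248). The receptors of CXCL8 were near 0: CXCR1 had no count, which allows up to 0.0512 TPM, and CXCR2 had 2, 5 and 9 counts, or 0.210 ± 0.137 TPM. IL1R1, the signalling receptor of interleukin-1, stood at 0.486 ± 0.191 TPM, although its partner IL1RAP stood at 16.6 ± 2.55 TPM. Of the receptor chains that bind IL24, IL20RA had no count, and IL20RB and IL22RA1 stood at 1.54 ± 0.151 and 2.32 ± 0.278 TPM. The receptor genes of LIF were transcribed, with LIFR at 21.5 ± 1.51 TPM and its shared chain IL6ST at 225 ± 14.8 TPM. IL13RA2, the decoy receptor of interleukin-13, measured 1265, 1329 and 1252 TPM and ranked 95th, above the signalling chain IL13RA1 at 58.9 ± 1.01 TPM. TNFRSF12A, the TWEAK receptor, stood at 257 ± 16.2 TPM, TNFRSF10B, a TRAIL receptor, at 115 ± 6.13 TPM and TGFBR2 at 97.6 ± 5.63 TPM, while TNFSF10, the TRAIL gene, had no count. CXCR4, CCR7 and ACKR3, receptors that guide migrating cells, had none either.

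All 21 genes of the NF-kB list reached 1 TPM, beside 61.5% of all genes, at a median of 32.7 TPM. NFKB1, at 79.5 ± 2.20 TPM, and NFKB2, at 72.3 ± 4.28 TPM, encode the precursor subunits and overlapped slightly, and RELA stood at 36.7 ± 1.40 and RELB at 32.7 ± 1.99 TPM. The inhibitor NFKBIA, itself a target of the pathway, stood at 81.3 ± 1.95 TPM, whereas TNFAIP3, the deubiquitinase A20, stood at 10.7 ± 0.454 TPM. BIRC2 and BIRC3, ubiquitin ligases at the TNF receptor, stood at 218 ± 10.1 and 67.3 ± 5.80 TPM.

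**Figure D5:**
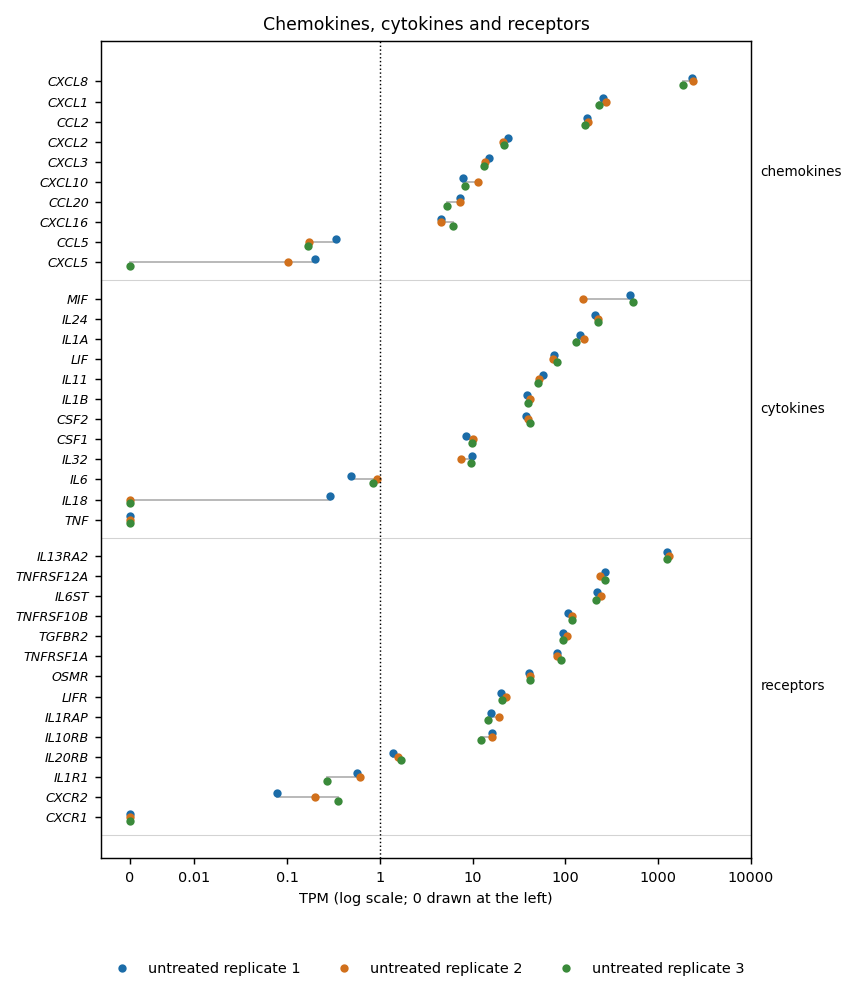
TPM of chemokines, cytokines and receptors (log scale, 0 drawn at the left) in the 3 untreated replicates, joined by a grey line. CXCL8 stands at 1858 to 2387 TPM above all other chemokines while CXCR1 is at 0 and CXCR2 below 1 TPM, and MIF shows the one wide gap among the high genes, at 154 TPM in replicate 2.

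Promoter sequence differed with level. In the RefSeq windows of 250 bases upstream of the start, matched by gene for 15384 genes with 21659 windows, the share with TATAAA on the gene strand was 15.4% for genes at 0, 8.13% above 0 and under 1 TPM, 4.90% from 1 to under 10 TPM, 2.96% from 10 to under 100 TPM and 4.22% at 100 TPM and over. Windows of the most transcribed class thus held these letters more often than the class below. Counted only at the end of the window next to the start, the shares were lower: 9.16%, 4.56%, 1.99%, 1.07% and 2.35%. The median GC content was 51.6%, 58.4%, 63.6%, 64.8% and 64.0% in these classes, and whether the TATAAA shares follow base composition was not tested. The median ratio of observed to expected CG dinucleotides rose along the same classes, from 0.268 to 0.446, 0.724, 0.812 and 0.850. Genes with several annotated starts contribute several windows, which share sequence, so these shares describe the windows and were not tested.

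A pair of windows shows that single genes depart from this order. IL24, at 221 TPM, had a CG ratio of 0.135 with 2 CG dinucleotides, and KIT, at 0 counts, had a ratio of 0.973 with 34. Both windows are 250 bases upstream of the RefSeq start on GRCh38.p14, plus strand, with each CG in capitals, chr1:206897193-206897442 for IL24 and chr4:54657707-54657956 for KIT.
IL24: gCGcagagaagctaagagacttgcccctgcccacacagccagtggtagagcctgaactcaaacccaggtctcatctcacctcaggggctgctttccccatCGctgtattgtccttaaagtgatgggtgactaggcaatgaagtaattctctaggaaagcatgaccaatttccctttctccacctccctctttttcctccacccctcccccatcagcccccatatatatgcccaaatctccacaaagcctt
KIT: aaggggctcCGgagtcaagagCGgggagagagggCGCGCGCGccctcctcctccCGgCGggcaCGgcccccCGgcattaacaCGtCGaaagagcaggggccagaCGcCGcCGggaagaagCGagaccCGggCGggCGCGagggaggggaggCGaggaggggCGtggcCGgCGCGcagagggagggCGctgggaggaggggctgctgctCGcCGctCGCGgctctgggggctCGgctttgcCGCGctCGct
Of the windows printed above, that of CXCL8, at 2193 TPM, had a ratio of 0.470, below the median of its class, and that of TYR, at 0.0707 TPM, had 0.257. These 4 windows were chosen after their values were seen. DNA methylation was not measured here.

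Of 32 collagen genes 17 (53.1%, beside 61.5% of all genes) reached 1 TPM, 8 reached 10 TPM, beside 42.8%, and the median was 1.81 TPM. COL9A3, a chain of the cartilage collagen IX, measured 217, 205 and 239 TPM and was the only one above 100 TPM. The next chains were COL6A2 at 69.9 ± 4.69, COL6A1 at 69.0 ± 4.19 and COL5A2 at 68.4 ± 0.862 TPM, whose ranges overlapped. COL4A1 and COL4A2, the basement membrane pair, stood at 59.8 ± 1.19 and 53 ± 2.16 TPM, an order that was reversed, by 1.18-fold, with the longest transcript as length. The fibrillar collagens of fibroblasts were near 0: COL1A1 had 16, 14 and 8 counts, or 0.164 ± 0.0546 TPM, COL1A2 had 4, 4 and 0 counts, and COL3A1 stood at 0.0495 TPM.

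Matrix glycoproteins and proteoglycans reached 1 TPM in 39 of 49 cases (79.6%, beside 61.5% of all genes), at a median of 18.7 TPM. IGFBP3, which binds insulin-like growth factors, measured 1113, 1124 and 1128 TPM, and SPARC, a collagen-binding matrix protein, 993, 1028 and 1013 TPM. MIA, a protein secreted by melanoma cells (60.9% of its exons overlapped), stood at 506 ± 55.2 TPM, SDC4, a cell-surface proteoglycan, at 492 ± 8.98 TPM and SPP1, osteopontin, at 183 ± 7.10 TPM. The laminin chains LAMB1 at 186 ± 4.20, LAMC1 at 176 ± 6.12 and LAMA4 at 125 ± 3.28 TPM encode chains that can assemble into one laminin. FN1, fibronectin, stood lower at 44.1 ± 2.54 TPM, THBS1 at 22.1 ± 0.307 TPM, and the YAP targets CCN1 and CCN2 at 36.9 ± 1.10 and 19.8 ± 1.54 TPM. VCAN, versican, stood at 0.778 ± 0.0926 TPM.

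Among proteases and their inhibitors 32 of 41 reached 1 TPM, beside 61.5% of all genes, and inhibitors were the highest. SERPINE2 was followed by TIMP3, at 954, 997 and 997 TPM, and TIMP1, at 397 ± 12.5 TPM. Of the metalloproteinases, MMP2, a gelatinase, measured 173, 174 and 185 TPM, MMP16 stood at 100 ± 5.43 and MMP14, which activates MMP2, at 77.7 ± 2.40 TPM. MMP1, the interstitial collagenase, stood at 23.6 ± 1.06 and MMP9 (overlapped) at 11 ± 0.512 TPM, and MMP2 exceeded MMP1 7.51-fold. The plasminogen system was split. PLAT, the tissue activator, stood at 95.7 ± 2.90 TPM and PLAUR, the urokinase receptor, at 71.1 ± 0.889 TPM, while PLAU, urokinase itself (overlapped), had 16, 17 and 8 counts, or 0.591 ± 0.217 TPM. PLAT exceeded PLAU 171-fold, or 279-fold with the longest transcript.

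Integrins reached 1 TPM in 16 of 25 cases (64.0%, beside 61.5% of all genes). ITGB1, the common beta chain, measured 518, 550 and 503 TPM, and ITGB3, the beta chain of the vitronectin receptor (overlapped), 422, 435 and 437 TPM. Their alpha partner ITGAV stood at 107 ± 8.49 TPM, ITGA6, the laminin receptor chain, at 233 ± 9.26 TPM, ITGB5 at 189 ± 6.52 TPM and ITGA5, the fibronectin receptor chain, at 64.5 ± 2.73 TPM. ITGA4, which binds VCAM1, stood at 53.7 ± 3.82 TPM. The leukocyte chains ITGAL and ITGAM had no count, and ITGB4, of epithelial hemidesmosomes, stood at 0.446 ± 0.0673 TPM.

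Glycolytic enzymes were among the most abundant nuclear transcripts, at a list median of 77.1 TPM. Of 35 genes 30 reached 1 TPM, beside 61.5% of all genes, and 14 reached 100 TPM, beside 8.97%. GAPDH (overlapped) measured 8293, 8471 and 8612 TPM, ENO1 stood at 2675 ± 74.1 TPM, TPI1 at 1907 ± 51.7 TPM and PKM at 1139 ± 29 TPM. LDHB, the lactate dehydrogenase chain of oxidative tissues (overlapped), measured 2297, 2418 and 2319 TPM, and LDHA, the chain of glycolytic tissues, 886, 1000 and 981 TPM. LDHB thus exceeded LDHA 2.46-fold, or 1.85-fold with the longest transcript. HK1 exceeded HK2 1.39-fold, at 87.7 ± 1.36 against 63.2 ± 1.65 TPM, and SLC2A1, the main glucose transporter, exceeded SLC2A3 1.60-fold, at 83.5 ± 0.837 TPM. SLC16A1, a lactate transporter, stood at 108 ± 5.85 TPM and SLC16A3, its hypoxia-induced relative, at 6.72 ± 0.279 TPM. PKLR, the liver form of pyruvate kinase, and HK3, a leukocyte hexokinase, had no count.

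Enzymes of the TCA cycle reached 1 TPM in 25 of 26 cases, beside 61.5% of all genes, at a median of 74.0 TPM. FH, fumarase, led at 311 ± 7.57 TPM, followed by MDH1 at 286 ± 13.9 and MDH2 at 219 ± 10.1 TPM. IDH1, the cytosolic isocitrate dehydrogenase, exceeded the mitochondrial IDH2 2.12-fold (185 ± 3.71 against 87.3 ± 3.39 TPM, and 3.93-fold with the longest transcript). PCK2, the mitochondrial PEP carboxykinase, stood at 10.3 ± 0.432 TPM, while PCK1, its gluconeogenic form, gave counts in replicate 1 alone.

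Serine, one-carbon and glutamine genes had the second highest list median, 113 TPM, with 30 of 33 at 1 TPM or more, beside 61.5% of all genes. PSAT1, the aminotransferase of serine synthesis, measured 473, 477 and 453 TPM, and exceeded PHGDH, the first enzyme of the route, at 70.9 ± 2.17 TPM, 6.6-fold (2.28-fold with the longest transcript). SHMT2 stood at 180 ± 6.29, MTHFD2 (overlapped) at 235 ± 11.1 and TYMS, thymidylate synthase (overlapped), at 308 ± 15.8 TPM. SLC38A2, a glutamine transporter, stood at 405 ± 26.0 TPM. ASS1, which makes arginine from citrulline and is silent in many melanomas, had 6, 0 and 7 counts, or 0.180 ± 0.157 TPM, beside 27.8 ± 2.28 TPM of ASL (overlapped), the next enzyme.

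Lipid genes reached 1 TPM in 35 of 36 cases, beside 61.5% of all genes, at a median of 40.3 TPM. SCD, the desaturase of stearate, stood at 187 ± 5.59 TPM, and FABP5, a fatty acid carrier, at 181 ± 5.33 TPM. ACLY, which makes cytosolic acetyl-CoA, stood at 150 ± 6.05 TPM, and FASN, fatty acid synthase, at 37.9 ± 4.77 TPM, 4.97-fold below SCD. FABP7, a carrier of neural crest cells, stood at 5.00 ± 0.374 TPM, and the adipocyte form FABP4 had no count.

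Redox and iron genes reached 1 TPM in 26 of 31 cases with a TPM value, beside 61.5% of all genes, at a median of 111 TPM. FTL and FTH1, the ferritin chains, measured 5579, 5416 and 5750 TPM and 4075, 4290 and 4353 TPM, but 62.4% of FTH1 exons are overlapped and the order was reversed, by 1.25-fold, with the longest transcript. PRDX1, a peroxiredoxin (overlapped), stood at 2296 ± 128 TPM, TXN, thioredoxin, at 1530 ± 55.9 TPM and NQO1, a target of NFE2L2 (overlapped), at 1167 ± 27.5 TPM. HMOX1, another such target, stood at 11.6 ± 0.713 TPM. TFRC, the transferrin receptor, stood at 277 ± 8.62 TPM, while SLC40A1, ferroportin, the iron exporter, had no count, which allows up to 0.0294 TPM. GPX4, which protects against ferroptosis, stood at 192 ± 14.7 TPM and ACSL4, which favours it, at 77.0 ± 6.52 TPM. MT2A stood at 450 ± 50.3 TPM, whereas MT1E, MT1F, MT1G and MT1M, near-identical metallothionein genes, had no count.

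The 13 mRNAs of the mitochondrial genome held 9.22 to 10.2% of TPM and 2.11 to 2.32% of counts per library. MT-ND6, the one mRNA read from the opposite strand, stood lowest at 597 ± 159 TPM, 22.5-fold below MT-CO1. Replicate 1 had the highest level of 12 of the 13, MT-CO1 being the exception.

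The 18 listed genes of the S100 family, small calcium-binding proteins of which melanoma pathology uses some as markers, can all be accounted for. S100A6, calcyclin, measured 5111, 4675 and 4986 TPM and ranked 16th, followed by S100A16 at 1018 ± 38.7, S100A4, metastasin, at 723 ± 22.8, S100A11 at 666 ± 36.6, S100A10, the annexin A2 partner, at 546 ± 6.95 and S100A13 (overlapped) at 306 ± 13.6 TPM. S100B, the clinical serum marker, measured 110, 102 and 107 TPM, 46.2-fold below S100A6, and overlapped with S100A3 at 105 ± 5.48 TPM. S100A2 stood at 81.6 ± 9.74, S100A1 (overlapped) at 6.46 ± 1.03, S100P at 2.18 ± 1.09 and S100A14 at 1.16 ± 0.206 TPM. Below 1 TPM stood S100A5 at 0.980 ± 0.723 and S100Z at 0.737 ± 0.315 TPM. S100A7, S100A8, S100A9 and S100A12, the forms of keratinocytes and myeloid cells, had no count.

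Of 28 antigen presentation genes 20 (71.4%, beside 61.5% of all genes) reached 1 TPM, at a median of 3.58 TPM. B2M, the light chain of class I molecules on chromosome 15, measured 529, 539 and 506 TPM, CALR, a chaperone of the same pathway, stood at 898 ± 8.53 TPM, and CD74, the invariant chain of class II, measured 518, 498 and 531 TPM. Of the class I heavy chains, HLA-B (overlapped) stood far lower, at 8.39, 5.16 and 11.7 TPM, and HLA-C had 0 counts. HLA-DRA, the class II alpha chain, stood at 2.79 ± 0.205 TPM, and CIITA, the class II activator (overlapped), at 5.84 ± 0.311 TPM. TAP1, the peptide transporter, stood at 0.857 ± 0.106 TPM.

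Low levels went with position on the chromosome. In the interval of chromosome 6 that holds the MHC, with genes from 28503296 to 33457548, 75 of 179 genes (41.9%) reached 1 TPM at a median of 0.461 TPM and 1 reached 100 TPM. All genes outside this and one further interval reached 1 TPM in 61.8% of cases, at a median of 5.46 TPM and with 9.07% at 100 TPM or more. Genes of general function in the interval were low too, such as DDX39B, an RNA helicase, at 0.109 TPM and RPS18, a ribosomal protein gene, at 224, 153 and 60.6 TPM, when the 77 ribosomal protein genes at 1 TPM or more had a median of 1374 TPM. TUBB, a tubulin gene of the interval, stood at 70.5 ± 2.51 TPM. In the interval lie 27 list members, among them all HLA genes, TAP1, TAP2, PSMB8, PSMB9, MICA, MICB, TNF, LTA, LTB, DDR1 and IER3. Among the 27, 7 had no count, beside 4049 of all 20248 genes. HLA genes are also polymorphic and near-identical to each other. Why values in this interval were low was not tested, and the levels of these members, TNF included, carry that limit.

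Ligands of immune receptors reached 1 TPM in 20 of 31 cases (64.5%, beside 61.5% of all genes), at a median of 4.17 TPM. LGALS1, galectin-1, measured 1712, 1658 and 1753 TPM, CD58, a T cell adhesion ligand, stood at 130 ± 5.40 TPM, PVR, CD155, at 91.2 ± 5.43 TPM, ICAM1 (overlapped) at 84.4 ± 1.61 TPM, CD47, the signal against phagocytosis, at 75.8 ± 3.11 TPM and CD276 at 51.1 ± 1.57 TPM. CD274, PD-L1, stood at 3.67 ± 0.413 TPM and PDCD1LG2, PD-L2, at 2.81 ± 0.436 TPM, with overlapping ranges, and IDO1 at 0.273 ± 0.140 TPM.

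Cancer-testis and tumour antigens ranged from above 1000 TPM to near 0. Of 36 measured members, 22 (61.1%, beside 61.5% of all genes) reached 1 TPM, and 13 reached 100 TPM, a level that 8.97% of all genes reached. PAGE5 measured 1184, 1163 and 1139 TPM, MAGEA4 949, 935 and 952 TPM and MAGEC2 406, 407 and 407 TPM. Close relatives were almost absent, with MAGEA1 at 8, 2 and 6 counts and MAGEC1 at 3, 0 and 3 counts, so MAGEA4 exceeded MAGEA1 2773-fold (log2 11.44 ± 1.03). MAGEA3 at 202 ± 2.80 and MAGEA6 at 149 ± 5.66 TPM, CTAG1A and CTAG1B, which both encode NY-ESO-1, at 115 ± 12.3 and 127 ± 12.7 TPM, and XAGE1B and CT45A1 are members of near-identical groups, among which reads may have been split. PRAME stood at 80.0 ± 4.41 TPM, and BAGE has no row in the table used here.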

How the data were processed

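Untreated A375 cells were measured by mRNA sequencing in 3 libraries, which the labels call biological replicates of batch 1. The labels' protocols give TRIzol extraction, capture on poly-T beads and a NEBNext Ultra kit, so the data cover polyadenylated transcripts. The authors deposited whole-number read counts per gene without normalization. FastQC, HISAT2, featureCounts, DESeq2 and GRCh38 are named in the submitters' processing notes, without versions, and no source used here gives the annotation release or the strand setting. A second deposited table of 100 features was read as FPKM, a unit inferred from its values, and was used as a check only: for 98 genes, counts per kilobase of the longest transcript over the deposited FPKM had medians of 1.02 to 1.04 per library, and counts per kilobase of merged exons, the length used for TPM, 0.789 to 0.807.

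From the deposited counts, TPM was computed in Python 3.11.15 over merged exons of GENCODE v29. Of 20463 annotated genes 215 had no length (0.130% of counts, SOD2 among them), and 849 of 1012 genes without a symbol were named from reference tables. The arithmetic was tested on simulated data. Genes at 0 are bounded by 3 counts over the 3 libraries, counting error only. No filter was applied and no group was tested. Wilson intervals are at 95%. Scaling alternatives used edgeR 4.0.16 (TMM) and DESeq2 1.42.0 (size factors) in R 4.3.3.

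The 34 gene lists (889 of 890 genes in the table) and the members were chosen with earlier results of these data known. Named genes are the 15 with the highest TPM, key members and the 4 highest of each list, the 8 with the highest spread and every listed S100 gene. Of these, results by spread are given in part. Any other gene named, the motifs, the windows and the chromosome intervals were chosen after their values were seen. The p-values of 3 libraries measure only the spread between these samples, and none is given. Some members of the lists enter the counts and medians but are not reported here by name.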

Additional observations from a re-analysis of the deposited data

Results flagged for a closer look

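A signal outside the main measurement came from the features that the authors assembled and that carry no annotated identifier. They took 1.292% of the counts of the untreated libraries on average, with 1.28 to 1.31% per library. The highest of these features had 35208, 33200 and 32653 counts in the 3 libraries. They have no gene name in the file and no level per length was computed for them. No group held 4 or more libraries, so single libraries were not screened as outliers.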

How the results depend on the processing

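No paired analysis was possible because the values come from no test and from a single group. Over 37 summary values and their alternatives, 379 of 396 recomputed values stayed within 1.5 times the count or 1 SD of the value, and 17 moved. The number of genes at 1 TPM, 12452, lay between 10218 at a threshold of 5 TPM and 13201 at 0.5 TPM. With the threshold at 5 TPM, 16 receptor tyrosine kinases, 13 cytokines, 19 growth factors, 11 collagens and 12 antigen presentation genes passed. Of the leukocyte markers 1 passed at 5 TPM, by CPM with TMM scaling, with DESeq2 size factors, with the assembled features kept, with at least 10 counts in every library, and 1 to 2 when a replicate was left out. The share of the 10 leading genes was 5.27% without mitochondrial genes and 5.42% with the assembled features. The share of genes with a highest library over 1.5 times the lowest was 7.94% (1030 genes) at a minimum of 20 counts, and 1.27 to 1.62% when a replicate was left out, when only 2 libraries are compared. Among 421 named genes, the percentile shifted by a median of 1.06 points with the longest transcript (at most 11.4, TSC2) and 3.15 points with CPM (at most 27.5, CSF2). The shift exceeded the SD of a gene's percentile between the libraries for 305 of these genes with the longest transcript and 367 with CPM. Most ranks thus depend on the measure by more than the libraries differ. Leaving out replicate 1 shifted HNRNPUL2-BSCL2 by 48.7 points. Levels below 1 TPM rest on few counts, and their order is not resolved at this depth.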

Other observations

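A further interval with low values was the leukocyte receptor interval, on chromosome 19 with genes from 54040825 to 55087923. In it 10 of 42 genes reached 1 TPM, beside 61.8% of genes outside this and the MHC interval, and the median was 0 TPM. NDUFA3, a subunit of respiratory complex I, stood there at 0.308 TPM and RPS9, a ribosomal protein gene, at 42.4 TPM, with 1384, 1482 and 1503 counts. In the MHC interval, 7 of 38 genes with at least 100 counts (18.4%) had a highest library over 1.5 times the lowest, beside 2.46% of 11152 genes elsewhere. PTP4A1, a phosphatase, had 717, 5276 and 1706 counts, and APOLD1 had 1055, 123 and 150, each sharing exons with another gene. These genes and intervals were chosen after their values were seen, and the cause was not tested.

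The coefficient of variation fell with depth, with medians of 21.2% for 2370 genes of 10 to 100 counts, 7.28% for 5198 genes of 100 to 1000, 4.02% for 5590 genes of 1000 to 10000 and 2.83% for 446 genes above. The inverse square root of each class's median count, as the true CV of counting alone, is 17.1%, 4.78%, 2.14% and 0.784%. A median of CVs taken from 3 libraries tends to lie below the true CV, so the measures are not alike.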
